A study of Ictidomys tridecemlineatus with 15 samples.

Results

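The progenitors of the 13-lined ground squirrel (13LGS) retina were followed across birth, from embryonic day 26 (E26) to postnatal day 1 (P1). Every cell that the authors' deposited annotation calls an early or late primary retinal progenitor cell (RPC), or an early or late neurogenic progenitor (neurogenic RPC), was taken from those time points. The rule gave 4913 cells, out of 16281 progenitors and 53394 cells in the series and 12962 cells of all types at E26 and P1. There were 2311 at E26 (1522 and 789 in its 2 libraries) and 2602 at P1 (1415 and 1187). Primary RPCs numbered 1725 at E26 and 2003 at P1, and neurogenic RPCs 586 and 599. The study profiled single cells of the 13LGS retina, in which cones outnumber rods, with 10x Chromium 3′ v3.1 libraries at 10 time points from E18 to P21. No treatment, genotype or sex is named for these animals, which were captive: E26 retinas came from embryos of timed-pregnant dams, and P1 retinas from litters in which the day of birth was P0.

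Primary RPCs divide and renew themselves, and they also give rise to neurogenic RPCs, which stand close to leaving the cell cycle to become neurons or photoreceptors. Across vertebrates the progenitor pool changes its output with age. In rod-dominant retinas such as that of the mouse, early-stage progenitors make ganglion cells, horizontal cells, cones and part of the amacrine cells. Late-stage progenitors there make the remaining amacrine cells, rods, bipolar cells and finally Müller glia. In the ground squirrel, the study reports, late-stage neurogenic progenitors give rise to cones too, and rods were detected only late after birth. In mice, the switch between early and late competence is accompanied by a broad change in progenitor gene expression, and the labels "early" and "late" in the deposited annotation refer to it.

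The libraries of each time point are called a and b here. These letters do not correspond to replicate numbers. The cell names show 2 libraries for P1, whereas the labels list 1 P1 sample, and which of the 2 is that sample cannot be told apart. Retinas were either fixed in methanol or flash-frozen, per the study's methods, and which library was treated in which way, how many animals it pooled and whether libraries of 1 time point came from separate animals the sources used here do not give. P-values therefore measure the spread between these libraries, which may be technical. The E26 libraries were the deeper ones, with median unique molecular identifier (UMI) counts per cell of 5230.5 (E26a) and 8011 (E26b) against 3749.5 (P1a) and 3411.5 (P1b). The 4 libraries held from 16403724 to 27577464 UMIs each, and E26a and E26b, like P1a and P1b, shared only 3 cell barcodes. The list of gene names carries no matrix row numbers, so genes are given here by their row in the matrix, counted from 1, and pathways or marker genes are not analysed here.

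The share of progenitors in the retina showed no change across birth beyond the spread between libraries, while the shares of several neuron classes around them differed widely. They made up 39.1% of the cells of E26a and 36.7% of E26b, and 44.4% of P1a and 31.8% of P1b, so that the E26 values lay inside the range of the P1 values. Primary RPCs were 27.2% and 31.0% of the E26 libraries and 34.0% and 24.6% of the P1 libraries (29.1% ± 2.64 against 29.3% ± 6.67, SD, n = 2). Neurogenic RPCs were 11.9% and 5.77% at E26 and 10.4% and 7.21% at P1 (8.82% ± 4.31 against 8.78% ± 2.22, SD, n = 2). For neither class was the difference between means, 0.226 and -0.0390 percentage points, larger than the spread within a time point. Amacrine cells, by contrast, were 2.77% and 0.0466% of the E26 libraries and 26.5% and 33.3% of the P1 libraries. Horizontal cells were 21.01% and 21.8% at E26 and 6.30% and 6.65% at P1. Ganglion cells were 30.7% and 32.2% at E26 and 17.0% and 24.01% at P1. These neuron classes did not overlap between the time points. With 2 libraries against 2, the exact two-sided permutation test cannot go below p = 0.333, so no test of a share is given. In a suspension of dissociated cells, a share also depends on how well each cell type survived.

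**Figure D1:**
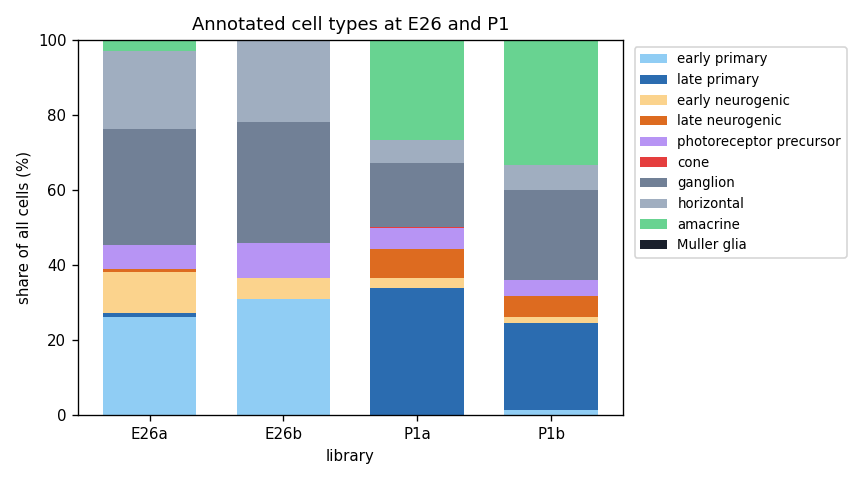
Share of all cells (%) of each annotated type in the 4 libraries of E26 and P1, as stacked bars. Progenitors (blue and orange shades) fill 39.1%, 36.7%, 44.4% and 31.8% of the bars from left to right, with light shades (early) giving way to dark ones (late) at P1.

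The balance between primary and neurogenic progenitors likewise showed no shift beyond the spread between libraries. Neurogenic RPCs were 30.4% of the progenitors of E26a (95% Wilson interval 28.1 to 32.7), 15.7% of E26b (13.3 to 18.4), 23.3% of P1a (21.2 to 25.6) and 22.7% of P1b (20.4 to 25.1). The P1 libraries differed by less than their counting error and lay between the E26 libraries, which differed from each other by far more than theirs. At P4 the share was 24.3%, and in library P8a it was 46.9%. These intervals, like all Wilson intervals given here, cover counting error only.

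The stage annotation turned over almost completely between E26 and P1 in primary RPCs and less so in neurogenic RPCs. Among primary RPCs, 42 of 1060 cells of E26a were annotated late (3.96%, Wilson interval 2.94 to 5.31) and 0 of 665 cells of E26b (upper limit 0.574%). At P1, 1084 of 1085 were late in P1a (99.9%, 99.5 to 99.98) and 866 of 918 in P1b (94.3%, 92.6 to 95.7). Late cells thus went from 1.98% ± 2.80 to 97.1% ± 3.94 of primary RPCs (SD, n = 2), and the time points did not overlap.

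Neurogenic RPCs kept an early-annotated fraction at P1. Late cells were 37 of 462 in E26a (8.01%, Wilson interval 5.87 to 10.8) and 0 of 124 in E26b (upper limit 3.00%). They were 249 of 330 in P1a (75.5%, 70.5 to 79.8) and 203 of 269 in P1b (75.5%, 70.0 to 80.2). In both P1 libraries the late share of neurogenic RPCs was therefore below that of primary RPCs by more than the counting intervals of either. The early-annotated cells at P1 were 1 and 52 primary RPCs and 81 and 66 neurogenic RPCs in P1a and P1b. By P4 the late share was 99.6% in primary and 88.7% in neurogenic RPCs. The authors named these clusters from the same counts in which stages are compared, so the shares describe the annotation and are not a separate test of a change in expression.

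**Figure D2:**
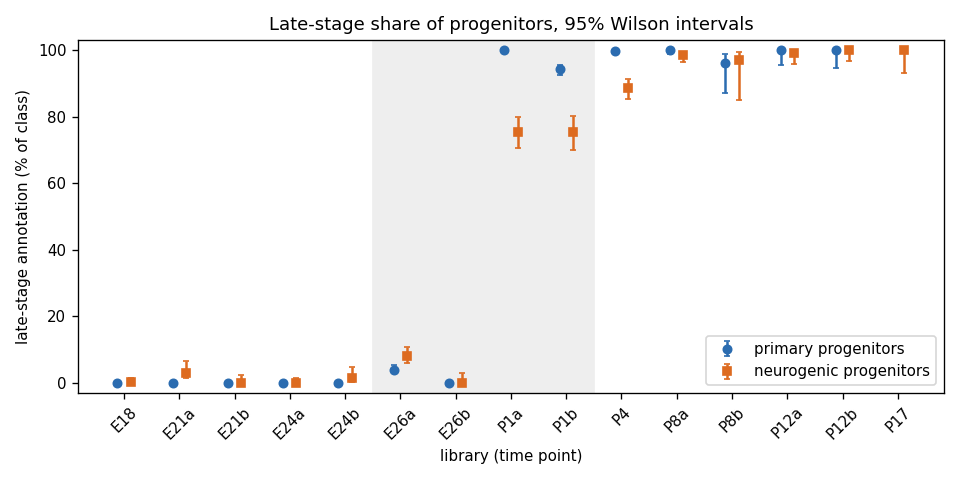
Share of primary (circles) and neurogenic (squares) progenitors annotated late (%) in each library with progenitors, with 95% Wilson intervals, the 4 compared libraries shaded. Primary progenitors went from 3.96% or less at E26 to 94.3% or more at P1, and neurogenic progenitors to 75.5% in both P1 libraries and 88.7% at P4.

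Cells with the minority annotation of their library and class did not separate by depth in 1 direction. In E26a, late primary RPCs had a median of 3928.5 UMIs and early ones 5390.5. Late neurogenic RPCs of E26a had 3694 and early ones 4656. In P1a, early neurogenic RPCs had 3335 UMIs and late ones 3165, and in P1b 2957.5 and 2745. The 52 early primary RPCs of P1b had 3403.5 UMIs and the late ones 3514.5. The minority annotation was thus the shallower in E26a and among primary RPCs of P1b, and slightly the deeper among neurogenic RPCs at P1. The part of depth in the annotation was not tested.

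Progenitors held about as many different genes per cell after birth as before it, once depth was made equal. Thinned to 3000 UMIs per cell, the median primary RPC had 1453 genes in E26a, 1525 in E26b, 1559 in P1a and 1549 in P1b. The median neurogenic RPC had 1417, 1511, 1510 and 1525. The P1 libraries were at or above the E26 libraries in both classes except that neurogenic RPCs of P1a were just under those of E26b. Cells shallower than 3000 UMIs were left out, from 7 (E26b) to 324 (P1b) primary and from 0 (E26b) to 152 (P1b) neurogenic RPCs. Without thinning, the medians were 2179, 3079, 1912 and 1697 genes in primary RPCs, so that the order followed depth.

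The P1 libraries stood far apart from each other in gene expression, and P1a stood further from E26 than P1b did. UMI counts were summed over all primary or all neurogenic RPCs of a library and expressed as CPM, the UMIs of a row scaled to a common total of 1000000 for each sum. Among 3158 rows with a mean of at least 50 CPM in primary RPCs, E26a and E26b differed at least 2-fold in 11 (0.348%), and P1a and P1b in 183 (5.79%). P1a differed 2-fold from E26a in 374 rows (11.8%) and from E26b in 346 (10.96%). P1b differed from them in only 56 (1.77%) and 48 (1.52%). P1b was in this count closer to either E26 library than to P1a. In neurogenic RPCs (3041 rows), the E26 libraries differed in 129 rows (4.24%) and the P1 libraries in 226 (7.43%). P1a differed from E26a and E26b in 460 and 478 rows, and P1b from each of them in 154.

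Over all rows, the change from E26 was larger in P1a than in P1b, and its direction was shared by more than 50% of rows. Each P1 library was compared with a different E26 library, so that no library entered both changes. In primary RPCs the median size of the log2 change over all 3158 rows was 0.42 in P1a against E26a and 0.19 in P1b against E26b, and 2216 rows (70.2%) lay on the same side. With the E26 libraries exchanged, the sizes were 0.41 and 0.23 and 2096 rows (66.4%) lay on the same side. In neurogenic RPCs the sizes were 0.48 and 0.26, with 1808 of 3041 rows (59.5%) on the same side, and 0.47 and 0.33, with 1769 (58.2%), after the exchange. The sides were thus shared less often in neurogenic RPCs than in primary RPCs by these counts, a difference that was not tested. Ganglion cells of the same libraries had sizes of 0.46 and 0.21, so the larger difference of P1a from E26 was also seen in a neuron class.

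Rows with large changes were shared to a different extent depending on the library in which they were chosen. Of the 374 rows of primary RPCs that differed 2-fold between P1a and E26a (244 higher and 130 lower at P1a), 299 (79.9%) lay on the same side in P1b against E26b, where the median row reached 21.2% of its change in P1a. Of the 48 rows chosen by a 2-fold difference between P1b and E26b, 41 (85.4%) lay on the same side in P1a, where the median row reached 73.6%. There were 24 rows with a 2-fold change in both. In neurogenic RPCs, 325 of 460 rows chosen in P1a (70.7%) and 124 of 154 chosen in P1b (80.5%) lay on the same side in the other library, at medians of 18.6% and 48.3%, and 49 changed 2-fold in both. A smaller median in the library that did not choose the rows is in part a result of that choice.

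**Figure D3:**
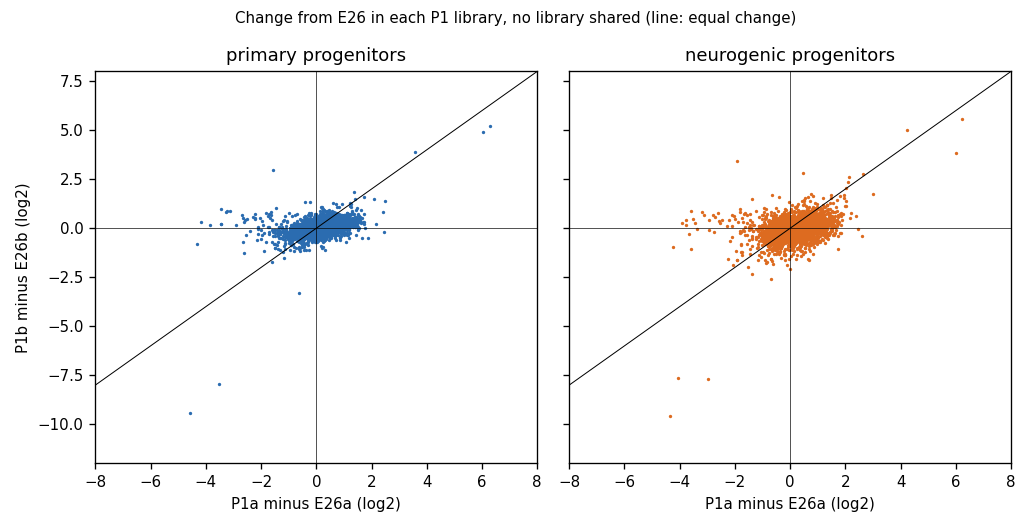
Log2 change of P1a from E26a (x axis) and of P1b from E26b (y axis) in primary (left) and neurogenic (right) progenitors, each point a matrix row with a mean of at least 50 CPM. Most points lie near the x axis and under the line of equal change, and only a few rows far from the origin changed strongly in both.

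The test across libraries called few rows, and the part of the gap between the P1 libraries in this was not tested. In primary RPCs, 3 of 14215 tested rows (0.0211%) passed an adjusted p of 0.05 in edgeR's quasi-likelihood test with Benjamini-Hochberg adjustment, and all 3 rose. None fell, although 1069 rows (7.52%) were lower at an unadjusted p under 0.05 and DESeq2 called 94 lower and 88 higher. At that unadjusted level 2157 rows (15.2%) differed. The count rose when any 1 library was left out. A time point then kept 1 library, which was assumed to vary like the other group, so these counts cannot be read against the count of 3. An alternative added the P1 libraries together as 1 sample, although the labels do not say that the listed P1 sample holds both. The median log2 change over all tested rows was -0.02.

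In neurogenic RPCs, 71 of 9344 tested rows (0.76%) passed, of which 31 (0.332%) rose and 40 (0.428%) fell, each of them by at least 2-fold. At an unadjusted p under 0.05, 1037 rows (11.1%) differed, and the median log2 change over all rows was -0.04. The count was 769 without P1b, 118 without P1a, 102 without E26b and 61 without E26a. It fell to 8 when cells above 2 times the median UMI count of their library and type, among which doublets would fall, were left out, and was 234 with P1 as 1 sample. The class comparisons share their libraries but not their cells, and the difference between the classes is tested further on.

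The largest called rises that met the naming rule were of rows 1551 and 5492 in both progenitor classes. Row 5492 stood at 9.20 and 14.6 CPM in primary RPCs of E26a and E26b and at 807 and 578 CPM in P1a and P1b. In neurogenic RPCs it stood at 8.54, 10.7, 704 and 557 CPM. The groups did not overlap and each P1 value lay far above each E26 value. The log2 change was 5.84 (SE 0.34, edgeR adjusted p = 0.0239) in primary and 5.94 (SE 0.41, edgeR adjusted p = 8.43e-08) in neurogenic RPCs, and the changes in these classes did not differ detectably (difference 0.09, SE 0.25, edgeR adjusted p = 0.975). Its level before E26 was not uniformly low. In primary RPCs it was 497 CPM at E18 and 343 in E21a, but 23.8 in E21b and 8.93 and 24.8 in the E24 libraries, and it stayed at 611 CPM at P4. The libraries of E21 thus differed widely, and the row rose in ganglion cells too, from 7.85 and 11.3 CPM at E26 to 426 and 307 at P1. The rise in ganglion cells was the smaller (difference of log2 changes -0.58, SE 0.16, edgeR adjusted p = 0.0198).

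Row 1551 had few or no UMIs in the progenitor sums of embryonic libraries and was detected in those of postnatal ones. Primary RPCs had 2 and 6 UMIs in all in the E26 libraries (0.263 and 0.719 CPM) and 274 and 153 UMIs in the P1 libraries (53.6 and 40.3 CPM). Neurogenic RPCs had 2 and 0 UMIs at E26 and 67 and 37 at P1 (56.7 and 40.3 CPM). No embryonic library from E18 on exceeded 0.719 CPM in either class, whereas P4 had 33.7 CPM in primary and 41.1 in neurogenic RPCs. The log2 change was 6.48 (SE 0.45, edgeR adjusted p = 0.0344) in primary and 6.68 (SE 0.70, edgeR adjusted p = 2.28e-05) in neurogenic RPCs. Its level was higher in ganglion cells, which rose from 0.705 and 0.755 CPM to 122 and 83.7 CPM, and horizontal cells went from 0 and 0.761 to 75.5 and 55.5 CPM. For this row and rows 5492, 15564, 16417 and 17804, UMIs could come from the progenitors themselves or from RNA free in the suspension. Which of these held was not tested.

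The remaining row called in primary RPCs, row 15564, was named after its values were seen. It had 0.526 and 0.599 CPM at E26 and 16.8 and 19.0 CPM at P1 (log2 change 4.90, SE 0.38, edgeR adjusted p = 0.0400). It was seen in primary RPCs at 10.6 CPM at P4 and at 0 in P8a, which allows up to 3.28 CPM. The zeros of P8b and P12a allow up to 20.9 and 15.2 CPM, so the level at those ages is not bounded below that of P1 by every library. In neurogenic RPCs it rose by 5.56 (edgeR adjusted p = 0.00149). Ganglion cells rose as well, from 0.970 and 0.377 CPM in the E26 libraries to 21.3 and 23.9 CPM in the P1 libraries. Rows 1551 and 5492 were also high in the early-annotated neurogenic RPCs of P1. In P1a and P1b these had 88.2 and 43.5 CPM of row 1551 and 660 and 552 CPM of row 5492. The 42 late-annotated primary and 37 late-annotated neurogenic RPCs of E26a had 0 UMIs of row 1551, which allows up to 16.8 and 19.9 CPM, and the primary ones had 3 UMIs of row 5492 (16.8 CPM). For rows 1551 and 5492 the minority-annotated cells of E26a and the early neurogenic RPCs of P1 thus lay on the side of their time point. These cells were part of the sums in which the rows were chosen, so this placement is no separate test of their stage. For row 15564, with 1 UMI in those 42 cells, depth does not allow such a placement.

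Rows that fell in neurogenic RPCs included 2 that disappeared. Row 16417 had 61 and 26 UMIs in the E26 libraries (14.5 and 21.5 CPM) and 0 in both P1 libraries, at least 11.2-fold lower against the limit of 3 counts over the P1 sum (edgeR adjusted p = 0.00578). In primary RPCs it had 13.4 and 29.0 CPM at E26, and 0.391 CPM and 0 at P1, a fitted log2 change of -6.46 with an edgeR adjusted p of 0.0847. Primary RPCs of E18, E21 and E24 had between 19.4 and 22.7 CPM. The E26 libraries thus held the lowest and the highest embryonic value in primary RPCs, and both P1 libraries lay far below them. After birth the level was 1.52 CPM at P4 and 0 in P8a (up to 3.28 CPM), while the zeros of P8b and P12a allow up to 20.9 and 15.2 CPM. The fall was not particular to progenitors: ganglion cells went from 4.41 and 13.3 CPM at E26 to 0 and 0.135 CPM at P1.

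Row 17804 had 81 and 934 UMIs in neurogenic RPCs at E26 and 0 in both P1 libraries, at least 131-fold lower (edgeR adjusted p = 0.00538). That bound rests on E26b: against E26a alone it is 13.4-fold, and without E26b the fitted log2 change went from -12.43 to -8.41. Its E26 levels differed widely, at 19.2 CPM in E26a and 771 in E26b, and the same held in primary RPCs (23.0 and 678 CPM, then 0 and 0 at P1; adjusted p = 0.234). The E24 libraries were as uneven, with 778 and 114 CPM in primary RPCs. Ganglion cells of E26a and E26b had 17.0 and 493 CPM and those of P1 none. The row was therefore not detected in progenitors or ganglion cells at P1 and varied between libraries of 1 age in each of these classes before birth. Horizontal cells of E26a and E26b had 36.9 and 4017 CPM, and photoreceptor precursors 48.9 and 1472 CPM, so the row was not particular to progenitors. At P17 it was at 94.7 CPM in the 51 neurogenic RPCs, 157 in amacrine cells, 151 in horizontal cells and 46.2 in ganglion cells.

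**Figure D4:**
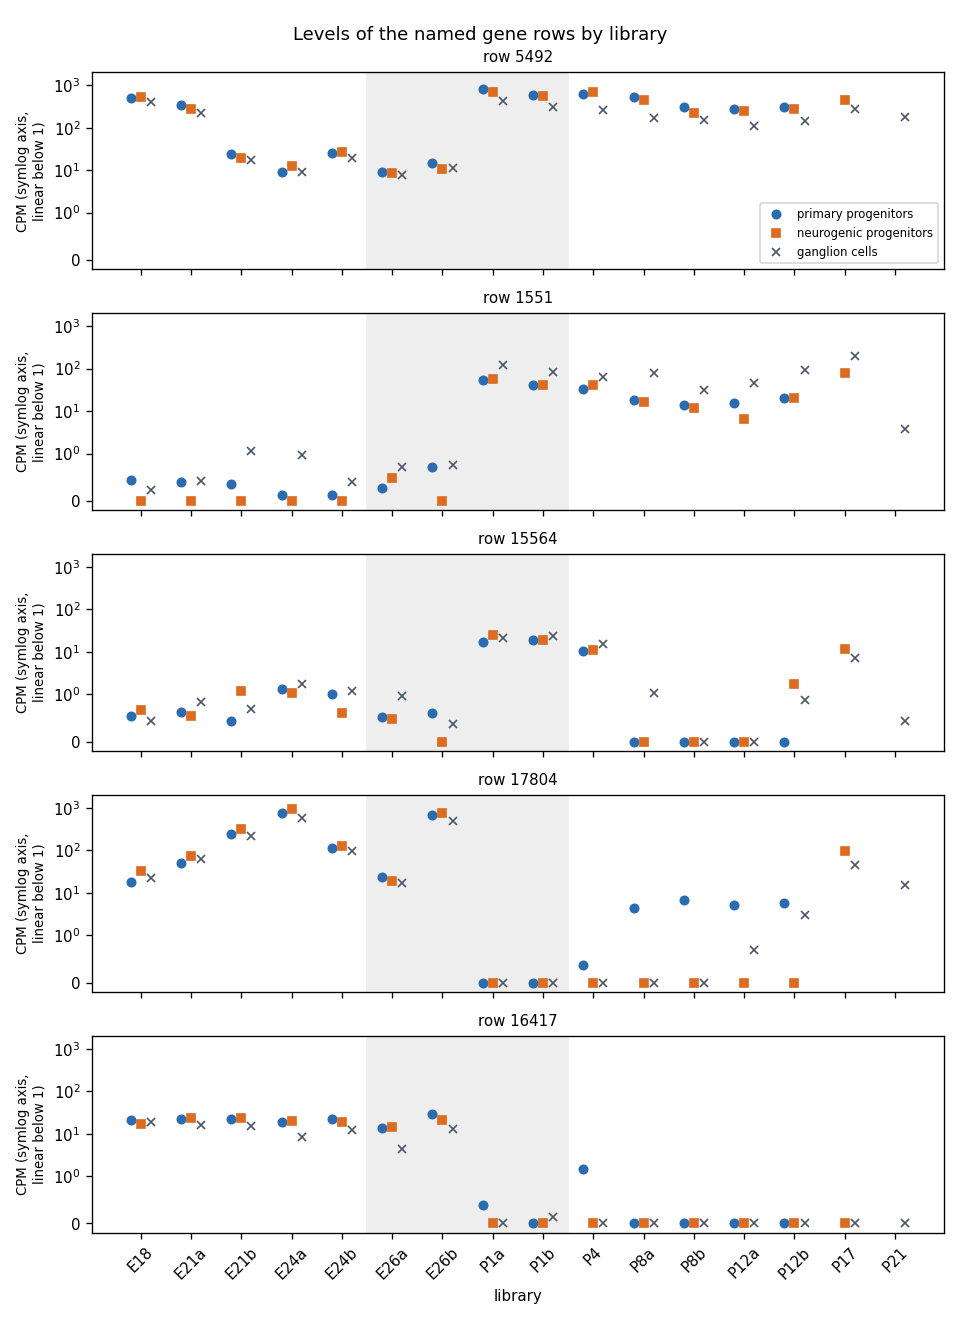
Level in CPM (symlog axis, linear below 1) of the 5 named rows in primary progenitors (circles), neurogenic progenitors (squares) and ganglion cells (crosses) of each library, E26 and P1 shaded. Rows 5492, 1551 and 15564 are higher in both P1 libraries than in both E26 libraries, rows 17804 and 16417 are at or near 0 at P1, and the classes move together.

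Rows that differed between E26 and P1 mostly lay on the same side in libraries that the comparison did not use. The P4 library was set against the mean of the E24 libraries. Of the 31 rows called higher in neurogenic RPCs, 29 (93.5%) were higher at P4 than at E24, and of the 40 called lower, 39 (97.5%) were lower. Over all tested rows 49.2% were higher and 50.8% lower. The 3 rows called in primary RPCs were all higher at P4. Using the looser rule of a 2-fold change with an unadjusted p under 0.05, 490 rows of primary RPCs (3.45% of those tested) were higher at P1 and 673 (4.73%) lower. At P4, 461 of these 490 (94.1%) were higher and 629 of the 673 (93.5%) lower, against 48.0% and 52.0% of all tested rows. In neurogenic RPCs the same rule gave 278 rows (2.98%), of which 254 (91.4%) were higher, and 437 (4.68%), of which 382 (87.4%) were lower. These shares have no test, since rows of 1 library are not independent.

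A scale was then made from libraries outside the comparison to place the progenitors of E26 and P1 between younger and older ones. It used, for each class, the 100 rows most raised and the 100 most lowered in P4 and P8 against E21 and E24 among rows with a mean of at least 50 CPM, and set the mean of the E24 libraries at 0% and P4 at 100%. Primary RPCs lay at 18.4% and 11.1% of the way in E26a and E26b, and at 80.7% and 50.4% in P1a and P1b. Both P1 libraries were beyond both E26 libraries, with a wide gap between them. Neurogenic RPCs lay at 30.0% and 0.525% at E26 and at 69.7% and 51.6% at P1. In this class, too, the groups did not overlap, and the E26 libraries were about as far apart as the P1 libraries of primary RPCs. The neurogenic sum of E26a held 4215739 UMIs, and 1720684 without cells above 2 times the median UMI count of their library and type. Positions without those cells are not given here.

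On the scale of primary RPCs, postmitotic neurons of the same libraries moved alike. Ganglion cells were at 49.8% and 46.4% in the E26 libraries and at 94.2% and 61.6% in the P1 libraries, and horizontal cells went from 33.7% and 26.3% to 82.6% and 53.1%. The gap between P1a and P1b was thus seen in neurons as well as in progenitors. Depth, which also fell from E26 to P1 and again to P4, moved with the scale, and its part was not tested.

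Early- and late-annotated progenitors of the same library differed on these scales, in a direction that depended on the class. In P1b, early primary RPCs were at 42.4% and late ones at 50.8%. In E26a, early and late primary RPCs were at 18.2% and 25.1%. The early primary RPCs of P1b were thus beyond the late ones of E26a. Among neurogenic RPCs the order of the annotations was the opposite: early cells were at 94.5% and late ones at 66.1% in P1a, at 54.3% and 51.1% in P1b, and at 30.5% and 15.6% in E26a. With both annotations thinned to the same number of UMIs the values were 94.5% and 66.0% in P1a, 54.3% and 51.2% in P1b, and 28.8% and 15.6% in E26a. Ganglion cells stood high on this scale of neurogenic RPCs, at 58.8% at E18, 72.7% in E26a and 107% in P1a. Ganglion cells of E18 were thus already beyond the neurogenic RPCs of P1b (51.6%), so the scale does not separate age from cell class. On this scale the early-annotated neurogenic RPCs of P1 were not nearer to E24 than the late-annotated ones of their own library. In P1b the difference was small, and whether it reflects stage was not tested.

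**Figure D5:**
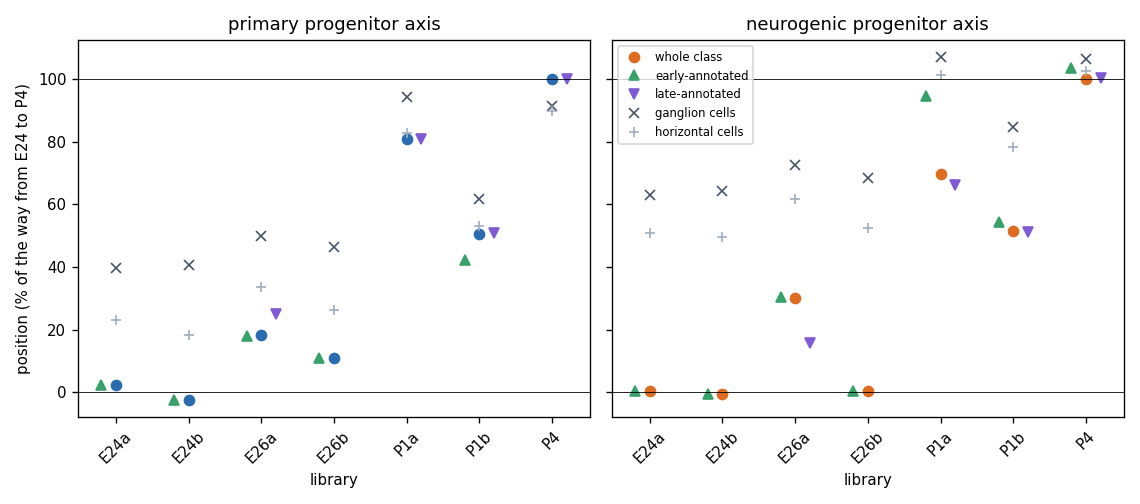
Position (% of the way from the mean of E24, 0, to P4, 100) on the scale of primary (left) and neurogenic (right) progenitors, for the whole class (filled circles), early- and late-annotated cells (triangles), ganglion cells (crosses) and horizontal cells (plus signs). Whole-class circles are at 18.4% and 11.1% (primary) and 30.0% and 0.525% (neurogenic) at E26, and at 80.7% and 50.4%, and 69.7% and 51.6%, at P1.

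Comparing classes within the same libraries removes a fold change that all cells of a library share. RNA free in the suspension adds counts rather than a fold, so it is not removed in this way. The change from E26 to P1 differed between neurogenic and primary RPCs in 61 of 13785 rows (0.443%; edgeR quasi-likelihood test with the library as a block). In 43 (0.312%) the change was more negative in neurogenic RPCs and in 18 (0.131%) more positive. Among the 40 of these 43 rows tested in each class, the median log2 change was 0.15 in primary and -1.08 in neurogenic RPCs. For the 18 rows the medians were -0.07 and 1.11. By these medians the rows moved mainly in neurogenic RPCs, but they were chosen by this difference, so the medians are no separate result. At P4 against E24, all 18 rows lay further in the same direction in neurogenic than in primary RPCs and 40 of the 43 (93.0%) did so in the other, where 45.8% and 54.2% of all tested rows did. The count of 61 was 4 without P1a, 28 without P1b, 370 without E26a and 873 without E26b, and limma with voom called 0 rows (971 at an unadjusted p under 0.05).

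Between primary RPCs and ganglion cells, which are among the first neurons born, the change across birth differed in 1341 of 16651 rows (8.05%). It was more positive in ganglion cells in 718 (4.31%) and more negative in 623 (3.74%). In 609 of the 623 rows, which were tested in both classes, the median log2 change was 0.31 in primary RPCs and -0.52 in ganglion cells, and 342 changed in opposite directions. In 675 of the 718 rows the medians were -0.40 and 0.54, with 374 in opposite directions. In the P4 and E24 libraries, 673 of the 718 (93.7%) and 558 of the 623 (89.6%) differed between the classes in the same direction, against 56.2% and 43.8% of all tested rows. Leaving out E26a or E26b lowered the count to 745 or 700, thinning to equal depth to 819, and limma with voom to 129. The contrast between dividing progenitors and postmitotic neurons was thus larger than between the progenitor classes by count, under edgeR as under voom. The sums of neurogenic RPCs were the shallowest, and the part of depth in this contrast was not tested.

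The rows with the strongest such contrast, named after their values were seen, show its forms. Row 32464 was at 15.6 and 16.0 CPM in primary RPCs of E26 and at 47.3 and 53.5 CPM at P1, while in ganglion cells it went from 35.0 and 33.9 to 14.8 and 12.8 CPM. The time points did not overlap in either class, and the difference between the log2 changes was -2.96 (SE 0.19, edgeR adjusted p = 3.58e-15). The rise went on in older progenitors, with 8.82 and 4.28 CPM in the E24 libraries, 76.5 at P4 and 177 in P8a, and neurogenic RPCs had 13.8 and 13.2 CPM at E26 and 40.6 and 23.9 at P1. Row 8167 was abundant in primary RPCs, at 223 and 253 CPM at E26 and 531 and 299 at P1, and fell in ganglion cells from 39.2 and 30.5 to 13.9 and 11.3 CPM (difference -2.19, SE 0.16, edgeR adjusted p = 1.50e-13). Row 2085 went the other way, from 170 and 167 to 106 and 135 CPM in primary RPCs and from 16.1 and 8.87 to 27.7 and 51.9 CPM in ganglion cells (difference 2.16, SE 0.17, edgeR adjusted p = 1.83e-12).

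Row 33363 fell in both classes, but not equally. Primary RPCs had 55.2 and 1616 CPM in E26a and E26b and 3.91 and 5.53 CPM at P1. Ganglion cells had 131 and 1244 CPM at E26 and 38.1 and 53.8 at P1, and the difference between the changes was 3.04 (SE 0.38, edgeR adjusted p = 1.61e-07). As with row 17804, its level at E26 was far higher in E26b than in E26a in each class. Whether its UMIs came from the cells themselves or from RNA free in the suspension was not tested. Within primary RPCs alone none of these 4 rows passed the test between the time points (edgeR adjusted p from 0.0992 to 0.324).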

How the data were processed

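Single-cell RNA-seq of 13LGS retina was analysed from 1 deposited matrix of UMI counts, with a deposited table that gives every cell a time point and an annotated type. Per the submitters' processing notes and the study's methods, the authors used Cell Ranger 3.1.0 and Seurat 4.0.4, with reads aligned to the HiC_Itri_2 assembly. The labels list GRCm38 as well. No source used here gives filters on cells or removal of doublets. The counts are whole numbers and not normalized. The matrix had 34181 rows, of which 33658 had a count. The list of 30265 gene names could not be paired with rows. All deposited cells were kept and no doublet caller was run. Instead, an alternative left out cells above 2 times the median UMI count of their library and type, which were 621 progenitors (12.6%).

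A library was a time point with a cell-name suffix, which gave 16 libraries for 15 labelled samples. To check that cell names follow the matrix columns, 6474 cells were matched to mean profiles of 6 classes, and 93.4% matched their own class best, against 20.7% after shuffling. Counts were summed per library and class. E26 and P1 were compared with edgeR 4.0.16 (filterByExpr, TMM, quasi-likelihood test) in R 4.3.3, with Benjamini-Hochberg adjustment over all tested rows. Differences between classes had the library as a block. DESeq2 1.42.0 and limma 3.58.1 were alternatives. The study tested single cells; sums per library were tested here because cells are not replicates. CPM values are UMIs scaled to a total of 1000000 per sum, without TMM. The positions between E24 and P4 are differences of mean log2(CPM + 10). Named rows were the 2 largest rises and falls per class among rows with an adjusted p under 0.05, at least 10 CPM at the higher time point and no overlap. The comparison, members and lists were chosen with earlier results of these data known.

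On counts simulated at the depths of these libraries, the test recovered 55% of 2-fold and 92% of 4-fold changes in primary RPCs (14020 rows). In neurogenic RPCs (9303 rows) it recovered 47% and 92%, and each class had 11 false calls. The simulation used 1 mean profile per class and 1 fixed dispersion for all rows. It did not hold the spread between the real P1 libraries, which differed 2-fold in 5.79% of rows of primary RPCs. These rates need not hold for the real libraries. The sums held from 3797516 to 8349122 UMIs for primary and from 918676 to 4215739 for neurogenic RPCs. Further alternatives were other filters, all libraries in the fit, thinned sums, 1 library left out, P1 as 1 sample and a choice by annotation.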

Additional observations from a re-analysis of the deposited data

Results flagged for a closer look

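The following results stand out because the change from E26 to P1 differed between cell classes of the same libraries by a test of that difference (edgeR quasi-likelihood test, library as a block, Benjamini-Hochberg adjustment). The change differed between neurogenic and primary RPCs in 61 rows and between ganglion cells and primary RPCs in 1341. With limma voom and an estimated correlation within libraries these counts were 0 and 129, and without P1a the 61 became 4. Between ganglion cells and primary RPCs, the difference of log2 changes was -2.96 for row 32464, -2.19 for row 8167, 3.04 for row 33363, 2.16 for row 2085 and -0.58 for row 5492 (SE 0.16, edgeR adjusted p = 0.0198). Row 5492 rose in each of these classes and rose less in ganglion cells. No group held 4 or more libraries, so no library was tested for standing apart from the others of its group.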

How the results depend on the processing

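Of the count of 3 rows in primary RPCs, DESeq2 made 182, no filter on low counts 946, all libraries of the series in the fit 198, P1 as 1 library 3973 and early-annotated cells only 66 (P1b is then the only P1 library). Leaving out 1 library gave 28 to 6264. The 71 rows of neurogenic RPCs became 194 without a filter, 107 with a minimum count of 10, 108 with all libraries, 234 with P1 as 1 library, 46 with thinned sums, 8 without cells of high UMI count and 172 with early-annotated cells only, and 61 to 769 with 1 library left out. The 61 rows that differed between neurogenic and primary RPCs became 129 without a filter, 0 with limma voom and 4 to 873 with 1 library left out. The 1341 that differed between ganglion cells and primary RPCs became 819 with thinned sums, 129 with limma voom and 700 to 1448 with 1 library left out. Where a time point kept 1 library, that library was assumed to vary like the other group. Of the 40 rows lower at P1 in neurogenic RPCs, 100% were lower at P4 when E21 replaced E24, against 97.5% with E24. With P8 in place of P4 the share was 90% for these rows, 90.3% for the 31 higher rows (from 93.5%) and 66.7% for the 3 rows of primary RPCs (from 100%). Both were chosen after seeing the data, as was the neurogenic against primary difference without cells of high UMI count (44 rows). The cause of these shifts was not tested.

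In primary RPCs, none of rows 1551, 5492 and 15564 changed direction in an alternative run that tested it. The same held for rows 1551, 5492, 17804 and 16417 in neurogenic RPCs. Rows 32464, 8167, 33363 and 2085 were not followed through the alternatives. Row 15564 in primary RPCs missed the threshold with thinned sums (adjusted p = 0.0626), as did row 17804 in neurogenic RPCs with DESeq2 (0.205) and without cells of high UMI count (0.0774), and row 16417 without those cells (0.0546). The difference in late share between time points stayed from 92.4 to 97.9 points in primary and from 67.5 to 75.5 points in neurogenic RPCs with 1 library left out. The difference in share of all cells changed sign, from -4.49 to 4.94 points for primary and from -3.08 to 3.01 points for neurogenic RPCs. No paired analysis was possible because the cell names carry no replicate numbers.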
